A study of Mus musculus with 2 samples.

Results

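Uromodulin (Umod) and epidermal growth factor (Egf) are 2 of the 32227 genes in count matrices of nuclei sorted from the thick ascending limb (TAL) of mouse kidney, and they were followed by name across every deposited cluster and across TAL classes that were set from other genes. A barcode, the tag that stands for 1 nucleus, entered a TAL class when it held at least 10 counts of Slc12a1, the gene of the apical sodium-potassium-chloride cotransporter NKCC2. It was called macula densa (MD) with at least 3 summed counts of Nos1 and Pappa2, otherwise TAL-β with at least 2 counts of Tmem52b, otherwise TAL-γ with at least 2 summed counts of Tmem207 and Gpc5, and otherwise TAL-α. Neither Umod nor Egf was part of this rule, whereas the deposited clusters were computed from gene expression and may have had these genes among their inputs. The 2 libraries came from male mice of a C57BL/6 background (strain label B6), labelled WT for genotype and 12 for age with no unit. In these NKCC2-INTACT animals a tamoxifen-inducible Cre recombinase under Slc12a1 control switched on the nuclear membrane protein Sun1 fused to superfolder GFP, so that nuclei of Slc12a1-positive cells could be sorted by fluorescence. Both libraries share that transgenic background, the tamoxifen and the sort. One library was made from a superficial strip of kidney (cortex) and the other from the rest of the kidney (medulla), so the medulla library also holds deeper cortical tissue. With 1 library per region, region and library cannot be told apart, no p-value is given, and every interval below is a 95% interval for counting error alone.

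Umod encodes the most abundant protein of normal urine, a glycoprotein that is anchored to the apical membrane of TAL cells by a lipid (GPI) tail, cut free by the protease hepsin (Hpn) and polymerised into filaments through its zona pellucida (ZP) domain. Variants in UMOD cause an inherited tubulointerstitial kidney disease in which the protein is retained in the endoplasmic reticulum. Egf is made in the kidney as a long membrane-anchored precursor, and its cleaved product acts through the receptor Egfr and is known to raise magnesium uptake through the channel Trpm6 in the distal convoluted tubule. The macula densa is the plaque of cells at the end of the TAL that senses tubular salt and signals to the glomerulus.

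Umod (ENSMUSG00000030963) lies on the minus strand at chr7:119061934-119078505 and Egf (ENSMUSG00000028017) on the minus strand at chr3:129470410-129549093 in GRCm39, by the GENCODE M39 annotation. Annotated exons cover 16.7% of the Umod gene and 15.5% of the Egf gene, the rest being intronic, and whether intronic reads were counted is not given in the sources used here. Because the genes differ in length, the level of Umod was not set against the level of Egf, and only the number of Egf counts per Umod count was compared between classes. The sequence just upstream of each annotated gene is shown because both genes fell together in MD barcodes. The RefSeq promoter table (GRCm38.p6) was matched base for base to GRCm39, and the part before the first GENCODE base of each gene is printed 5′ to 3′ on the gene's strand, for Umod chr7:119078506-119078735 and for Egf chr3:129549094-129549221. Capitals mark a match to CACCTG, an E-box, on either strand.
Umod: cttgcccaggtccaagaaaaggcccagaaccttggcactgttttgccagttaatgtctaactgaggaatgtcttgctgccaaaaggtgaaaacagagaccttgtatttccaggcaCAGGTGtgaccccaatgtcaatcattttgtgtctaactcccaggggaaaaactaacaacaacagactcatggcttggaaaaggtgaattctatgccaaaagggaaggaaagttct
Egf: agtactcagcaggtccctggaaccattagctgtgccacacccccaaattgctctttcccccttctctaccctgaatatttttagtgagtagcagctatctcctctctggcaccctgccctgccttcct
In the 250 bases before the RefSeq start, Umod had 1 match to CACCTG on the other strand, beginning 135 bases upstream. Egf had none in either of the 2 windows that the table lists for it. The nuclear receptor core AGGTCA, the TATA box TATAAA and the octamer ATGCAAAT were also searched on both strands and had no match for either gene. Of 32851 RefSeq promoter windows of the same length, 17.2% held CACCTG, 14.02% held the nuclear receptor core, 12.4% the TATA box and 1.60% the octamer, and these matches are a description of letters only.

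The cortex library held 5442 called barcodes and 16457300 counts, and the medulla library held 8121 barcodes and 20947211 counts, with median depths of 2427 and 2430 counts and 0 barcodes in common. Slc12a1 reached 10 counts in 95.9% of cortex and 98.1% of medulla barcodes. The classes followed their other markers with exceptions. MD barcodes carried Robo2 at 4789 counts per 1000000 (CPM) in cortex and 5795 CPM in medulla, and the claudin gene Cldn16 was at 188 and 249.9 CPM in TAL-β against 101 and 60.2 CPM in TAL-α. In cortex, 160 barcodes called TAL-α lay in the deposited cluster that held most MD barcodes. They carried Robo2 at 6414 CPM, against 263 CPM in the other TAL-α barcodes. In medulla, 27 such barcodes carried it at 5935 CPM, against 38.3 CPM. They stay in TAL-α by the rule. The 248 cortex barcodes that met the TAL-γ rule carried Cldn16 at 153 CPM and the parathyroid hormone receptor Pth1r at 455 CPM, against 55.0 and 42.0 CPM in the 3542 TAL-γ barcodes of the medulla, and 132 of them sat in a deposited cluster made mostly of TAL-β barcodes. Their label therefore went against the data, and they are called cortex barcodes meeting the TAL-γ rule below. In medulla, TAL-α and TAL-γ barcodes were mixed within deposited clusters. Their numbers were 788 and 241 in cluster 3, 644 and 359 in cluster 4 and 295 and 1006 in cluster 2. A further 202 TAL-γ barcodes sat in the mostly TAL-β cluster 6. Transcripts of proximal tubule were mixed into the sort: 26.4% of TAL barcodes outside MD in cortex and 7.59% in medulla held 3 or more counts of a 10-gene proximal tubule list. This share moves with the region, and its part in any cortex-to-medulla difference was not tested.

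Umod made up 0.312% of all cortex counts and 0.369% of all medulla counts (51338 and 77221 counts), and Egf 1.04% and 0.718% (171915 and 150324 counts). In TAL barcodes other than MD, Umod was seen in 94.4% of cortex barcodes (95% Clopper-Pearson interval 93.7 to 95.04%) and 98.0% of medulla barcodes (97.7 to 98.3%). Egf was seen in 96.6% (96.0 to 97.1%) and 95.9% (95.4 to 96.3%). The median barcode outside MD held 10 Umod and 35 Egf counts in cortex and 9 Umod and 11 Egf counts in medulla.

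Umod differed little among the main TAL classes. In cortex, summed over barcodes, it was at 3804 CPM in TAL-α (exact Poisson interval 3761 to 3847, 2824 barcodes), 3130.1 CPM in TAL-β (3082 to 3178, 1493 barcodes) and 3677 CPM in the barcodes meeting the TAL-γ rule (3548 to 3811). In medulla it was at 4169 CPM in TAL-α (4127 to 4210.1, 3776 barcodes), 4311 CPM in TAL-β (4215 to 4409.5, 571 barcodes) and 3354 CPM in TAL-γ (3316 to 3392, 3542 barcodes). The highest and the lowest of these 6 values, both TAL-β, came from different libraries.

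Egf was spread over a wider range, and that range lay in the medulla. Cortex TAL-α, TAL-β and TAL-γ-rule barcodes held 11624 CPM (11549 to 11699), 12202 CPM (12107 to 12297) and 11909.5 CPM (11675 to 12147). Medulla TAL-β held 14928 CPM (14748 to 15109.7), TAL-α 8513 CPM (8454 to 8572) and TAL-γ 4858 CPM (4813 to 4904). The cortex values thus sat close together, between the TAL-β and TAL-α values of the medulla, and medullary TAL-γ was the lowest class outside MD.

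**Figure D1:**
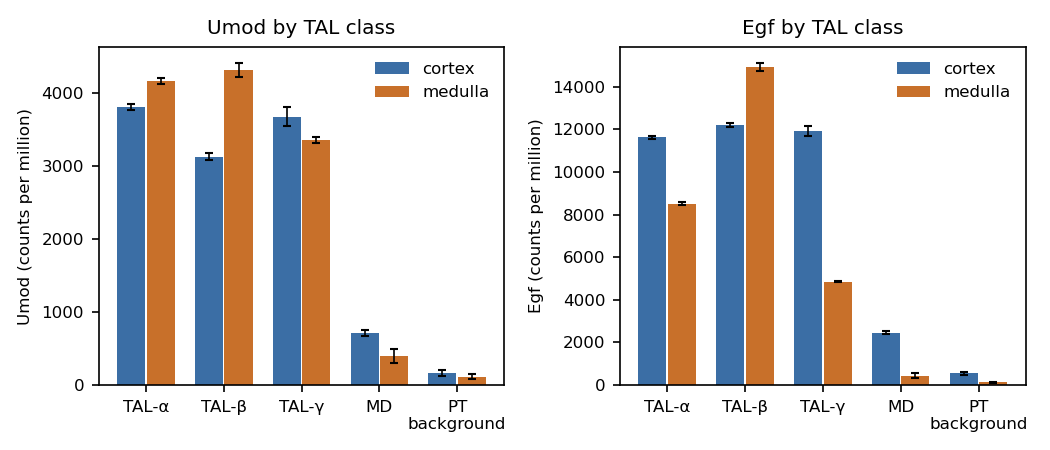
Umod (left) and Egf (right) as CPM of summed counts for each TAL class and for proximal tubule (PT) background barcodes, cortex in blue and medulla in orange, bars with exact Poisson 95% intervals for counting error. MD sat far below the other classes for both genes, and medullary TAL-γ held 4858 CPM of Egf against 14928 CPM in medullary TAL-β.

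MD barcodes carried far less of both transcripts than the rest of the TAL. In cortex, Umod was at 718 CPM in 653 MD barcodes (678 to 760) against 3545 CPM in the other TAL classes, a ratio of 0.202 (conditional binomial interval 0.191 to 0.214). In medulla it was at 392 CPM in 78 MD barcodes (302 to 499) against 3816 CPM, a ratio of 0.103 (0.0792 to 0.131). Egf was at 2454 CPM in cortex MD against 11856 CPM, a ratio of 0.207 (0.201 to 0.213), and at 439.7 CPM in medulla MD against 7432 CPM, a ratio of 0.0592 (0.0464 to 0.0744). Slc12a1, of which the rule required 10 counts in every class, had ratios of 0.946 in cortex and 0.727 in medulla. Without the 5% of barcodes with the highest doublet scores the cortex ratios fell to 0.0885 for Umod and 0.0840 for Egf and the medulla ratios to 0.0624 and 0.0329. After thinning to 1000 counts per barcode they were 0.100 and 0.0890 in cortex. A ratio of 0.5 or less with at least 20 counts on both sides together was reached by 8.76% of 15348 genes tested in cortex and by 32.0% of 15196 in medulla, where the 78 MD barcodes held 166019 counts in all and low genes often had none.

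Most MD barcodes held no Umod and no Egf count at all. Umod was seen in 23.7% of cortex MD barcodes (20.5 to 27.2%) and 20.5% of medulla MD barcodes (12.2 to 31.2%), and Egf in 34.9% (31.3 to 38.7%) and 21.8% (13.2 to 32.6%). Free RNA in the droplets gives counts in nuclei that do not express a gene. Barcodes with at most 2 Slc12a1 and at least 3 proximal tubule counts, a cell type that should lack both genes, were taken as background. They showed Umod in 27.9% of 104 cortex and 26.7% of 105 medulla barcodes and Egf in 47.1% and 23.8%. As deposited, without a match of depth, the MD shares were at or below this background in both libraries. The background barcodes were deeper, with medians of 3317 and 4551 counts against 1883 and 1995.5 in MD. After thinning each barcode to 1000 counts, Umod was seen in 17.0% of cortex MD against 15.4% of proximal tubule barcodes, and Egf in 25.1% against 23.1%. In medulla the thinned shares were 11.5% in MD for each gene against 4.76% and 6.67% in the proximal tubule barcodes. Summed levels in MD stayed above that background, which was 163 and 112 CPM for Umod and 542 and 118 CPM for Egf in cortex and medulla.

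The counts that remained in the MD class came mostly from barcodes outside the deposited MD clusters. The deposited clusters carry only numbers, and the MD cluster of a library is the one that held most of its MD-class barcodes. In cortex, the 537 MD barcodes inside the deposited MD cluster held 83 Umod counts in all (83.4 CPM) and 180 Egf counts (181 CPM), and the highest barcode had 6 and 7. The other 116 MD barcodes, with a median depth of 4858.5 counts, held 1114 Umod and 3912 Egf counts, at 1656 and 5816 CPM. Of these 116, 51.7% held 3 or more proximal tubule counts against 2.61% inside the MD cluster, and its part in their levels was not tested. Among them were 49 barcodes of cluster 10, all with both genes and with medians of 13 Umod and 42 Egf counts, with a median depth of 4543 and 3 or more proximal tubule counts in 28.6%. In medulla, 71 MD barcodes inside the deposited MD cluster held 12 Umod and 22 Egf counts (86.1 and 158 CPM), and the other 7 held 53 and 51. The reverse was seen for barcodes that the count rule called TAL-α but that lay in the deposited MD cluster. In cortex, 160 such barcodes held Umod at 163 CPM and Egf at 240 CPM (239.6), against 3934 and 12032 CPM in the other TAL-α barcodes. Taking MD as the deposited clusters moved the ratio to the other TAL classes to 0.0285 in cortex and 0.0239 in medulla for Umod and to 0.0166 and 0.0324 for Egf. This is a description only, since the clustering may have used these genes.

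The loss of both transcripts was reached at a low count of the MD markers. In cortex, barcodes with 0, 1, 2 and 3 summed counts of Nos1 and Pappa2 had no Umod count in 2.55%, 26.4%, 66.2% and 67.0% of 4201, 231, 133 and 94 barcodes. For Egf the same shares were 0.786%, 22.1%, 54.9% and 53.2%. In medulla, 7788, 90, 11 and 11 barcodes at these steps lacked Umod in 1.78%, 8.89%, 72.7% and 81.8% and lacked Egf in 3.94%, 8.89%, 72.7% and 72.7%. Barcodes just outside the cutoff, with 2 counts, were thus like those just inside it with 3, and the median fell from 11 Umod and 36 Egf counts at 0 marker counts to 0 of each at 2 in cortex.

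**Figure D2:**
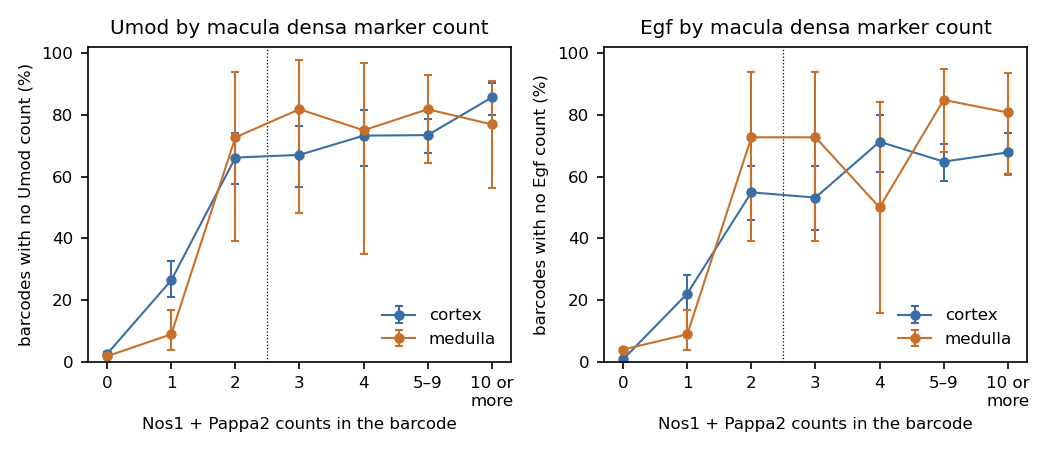
Share of barcodes (%) with no count of Umod (left) and Egf (right) against the summed Nos1 and Pappa2 counts of the barcode, among barcodes with at least 10 Slc12a1 counts, with Clopper-Pearson 95% intervals. The dotted line marks the MD cutoff; the share without Umod rose from 2.55% at 0 to 66.2% at 2 marker counts in cortex.

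Other genes of the TAL did not all follow. Of 18 genes of TAL transport, 8 were at 0.5 or less in cortex MD and 1 was at 2 or more. Over all genes tested there, 8.76% were at 0.5 or less. The median log2 ratio of the list was -0.82 against 0.05 over all genes tested. The lowest was Cldn19, a claudin of the paracellular calcium and magnesium pathway, at 0.204 (0.149 to 0.272), followed by Slc9a3, the sodium-proton exchanger NHE3, at 0.247 (0.213 to 0.284). Slc9a2, another sodium-proton exchanger, was higher at 2.55 (2.34 to 2.78), and 7.26% of all genes were at 2 or more. In medulla MD, 10 of the 18 were at 0.5 or less and 2 at 2 or more, against 32.0% and 17.8% of all genes. The median log2 ratio was -1.20 against 0.37. Of the 20 genes for folding in the endoplasmic reticulum and GPI attachment, the pathway that a GPI-anchored protein such as uromodulin passes through, 0 were at 0.5 or less in cortex MD and 1, Pgap1, was at 2.01 (1.74 to 2.31). The chaperone gene Hspa5 had a ratio of 0.983 (0.748 to 1.27) there. In medulla MD 4 of these 20 were at 0.5 or less, each with at most 3 MD counts, a smaller share than the 32.0% of all genes. The median log2 ratio of the list was -0.06 in cortex and -0.25 in medulla.

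Of the 7 genes of uromodulin release and inherited tubule disease, 0 passed either limit in cortex MD. The shares of all genes tested there were 8.76% at 0.5 or less and 7.26% at 2 or more. The median log2 ratio of the 7 genes was -0.01. In medulla MD 6 had enough counts, of which Muc1 was higher and Hpn and Dnajb11 were lower, from 5, 9 and 2 MD counts, shares close to those of all genes (32.0% at 0.5 or less and 17.8% at 2 or more). Hpn had a ratio of 0.661 (0.566 to 0.768) in cortex and 0.352 (0.161 to 0.670, 9 MD counts) in medulla. Of the ZP domain relatives of Umod, 4 of 9 had enough counts to be tested in cortex MD, and Gp2, the closest relative of Umod, was the only 1 at 0.5 or less, at 0.265 (0.200 to 0.345). In medulla MD Gp2 had 1 count against 3520 in the other TAL barcodes, a ratio of 0.0346 (0.000875 to 0.193), and Tgfbr3, a co-receptor of TGF-beta, was lower at 0.446 (0.268 to 0.697), while Zpld1 and Eng were past the upper limit with 1 MD count each.

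Among the other ligands of the Egf family, 6 of 10 had enough counts in cortex. Transforming growth factor alpha (Tgfa), another ligand of Egfr, was higher in MD at 8.76 (4.80 to 16.0, from 25 and 24 counts), and Hbegf was lower at 0.449 (0.267 to 0.711, from 19 MD counts). Neuregulin 2 (Nrg2) was at 2.16 (0.914 to 4.59) from 9 MD counts. Over all genes tested in cortex MD, 7.26% were at 2 or more and 8.76% at 0.5 or less. In medulla MD, Btc, Nrg2, Nrg3 and Nrg4 had 0 counts and Tgfa had 1, and 4 of the 5 ligands with enough counts fell under the lower limit only because no MD count was found, so ligand differences were not detectable at this depth. Of 9 genes for Egf receptors, cleavage and targets, 0 passed either limit in cortex MD, where Egfr had a ratio of 0.539 (0.460 to 0.629). In medulla MD, Egfr was at 0.318 (0.146 to 0.605) from 9 MD counts, and Erbb3, Rhbdf2 and Trpm6 were at 2 or more from 8, 3 and 4 MD counts. Over all genes tested there, 17.8% were at 2 or more and 32.0% at 0.5 or less, so no weight is put on these few counts.

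Between TAL-β and TAL-α as whole classes, the separation was clear for Egf in medulla and small or unsteady elsewhere. Umod in TAL-β was 0.823 of its TAL-α level in cortex (0.807 to 0.839) and 1.03 in medulla (1.01 to 1.06). The cortex value turned to 1.16 with the deposited clusters as classes and to 1.14 per Slc12a1 count. Slc12a1 itself was 0.721 of its TAL-α level. With the deposited clusters, cortex clusters 6 and 7 counted as TAL-α, at 1503 and 1755 CPM of Umod. They held 12156.5 and 12912 CPM of the proximal tubule list, and their part was not tested. The medulla value turned to 0.579 after free RNA scaled on proximal tubule genes was subtracted. That subtraction reads all proximal tubule transcripts as free RNA and took 33.5% of TAL-α and 44.6% of TAL-β counts as free. No direction is drawn from that value. The cortex value turned under the other alternatives named, and the libraries lay on opposite sides of 1, so no direction is given for Umod. Egf in TAL-β was 1.05 of TAL-α in cortex (1.04 to 1.06) and 1.75 in medulla (1.73 to 1.78). Cortex TAL-α barcodes outside the deposited MD cluster held 12032 CPM of Egf, close to the 12202 CPM of cortex TAL-β. The medulla TAL-α class pooled deposited cluster 1, at 13838 CPM of Egf, with clusters 3 and 4, at 5049 and 2410.1 CPM. The mostly TAL-β cluster 6 of the medulla held 17369 CPM. In cortex, mostly TAL-β clusters 2 and 4 held 17913 and 13798 CPM, and mostly TAL-α clusters 1, 5 and 8 held 14911, 12972 and 10493 CPM. The part of this makeup in the medulla ratio was not tested. Slc12a3, the marker of the distal convoluted tubule, moved with the class, at 263 CPM in TAL-β against 61.1 CPM in TAL-α in cortex (ratio 4.29) and 148 against 2.45 CPM in medulla (ratio 60.4, from 260 and 23 counts), and its part in the Egf difference was not tested. A ratio of 2 or more was reached by 2.71% of genes in cortex and 3.25% in medulla and a ratio of 0.5 or less by 2.29% and 5.31%, and Umod and Egf reached neither, whereas Trpm6 was higher at 3.26 (2.58 to 4.14) and 7.47 (4.35 to 13.0). Trpm6, like Slc12a3, is a marker of the distal convoluted tubule, and the part of such transcripts in its ratios was not tested. The cortex ratio of Egf stood above 1 in each alternative except that same subtraction (0.765), and the medulla ratio stood above 1 in all of them. Of 18 transport genes, Kcnj10 was higher in cortex TAL-β (7.80) and the prostaglandin receptor gene Ptger3 lower (0.130). In medulla Casr (2.45), Cldn16 (4.15) and Kcnj10 (12.8) were higher and Cldn10 (0.230) and Ptger3 (0.181) lower. Of the 20 folding and GPI genes, 0 passed either limit in cortex, and in medulla Sec61b (0.308) and Gpaa1 (0.454) were lower. Release and disease genes had 1 of 7 past the upper limit in cortex, Ren1 at 2.23 from 19 and 13 counts, and 0 of 6 in medulla, and of the ligands Nrg4 was higher in medulla at 2.67 from 11 and 22 counts. Of 4 ZP relatives with enough counts in cortex, Zpld1 (2.58) and Eng (2.38) were higher, and 0 of 2 passed either limit in medulla.

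In the medulla, TAL-γ as a whole class had less of both transcripts than TAL-α as a whole class. The ratio was 0.805 for Umod (0.793 to 0.817) and 0.571 for Egf (0.564 to 0.577), and 2.98% of 14861 genes were at 0.5 or less and 1.35% at 2 or more, neither gene among them. Both ratios stayed below 1 in every alternative, but none of these left deposited cluster 1 out of TAL-α. The TAL-α class held 1489 barcodes of deposited cluster 1, which was at 13838 CPM of Egf and 5222 CPM of Umod. The mostly TAL-α clusters 3 and 4 held 5049 and 2410.1 CPM of Egf and 3920 and 2673 CPM of Umod. The mostly TAL-γ clusters 7, 5 and 2 held 7044, 4302 and 2770.4 CPM of Egf and 4532, 3093 and 3039 CPM of Umod. The part of cluster 1 in the class ratios was not tested. Of 20 genes for folding and GPI attachment, 0 passed either limit between the TAL-γ and TAL-α classes, with a median log2 ratio of 0.02 against 0.00 over all genes. None of the 6 release and disease genes, 9 receptor and cleavage genes, 5 ligands and 4 ZP relatives with enough counts passed either limit. Of 18 transport genes, 2 were at 0.5 or less, among them Slc9a2 at 0.320 (0.271 to 0.376). Only 1 was at 2 or more, Kcnj10, the potassium channel Kir4.1, at 8.24 (6.83 to 10.0).

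The counts of the markers that the rule used show how Umod and Egf ran across its cutoffs, which is a description of the same barcodes and no separate support. In medulla barcodes outside MD, Egf rose from 6531 CPM at 0 counts of Tmem52b to 9906, 13380.5, 15612 and 15778 CPM at 1, 2, 3 and 4 or more. In cortex the corresponding Egf values were 11548, 12236, 12415, 12415 and 12059 CPM. Among medulla barcodes that were neither MD nor TAL-β, Egf fell from 8945 CPM at 0 summed counts of Tmem207 and Gpc5 to 6717, 5632, 5361 and 4643 CPM at 1, 2, 3 and 4 or more. The barcodes at 0 and 1 are the TAL-α class, among them 1489 of deposited cluster 1, a cluster at 13838 CPM of Egf. The part of cluster 1 in this fall was not tested. Umod moved much less along these steps, between 3743 and 4571 CPM along Tmem52b and from 4273 to 3270.2 CPM along Tmem207 and Gpc5 in medulla. Barcodes just outside and just inside the TAL-β cutoff held 9906 and 13380.5 CPM of Egf, and those around the TAL-γ cutoff 6717 and 5632 CPM.

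**Figure D3:**
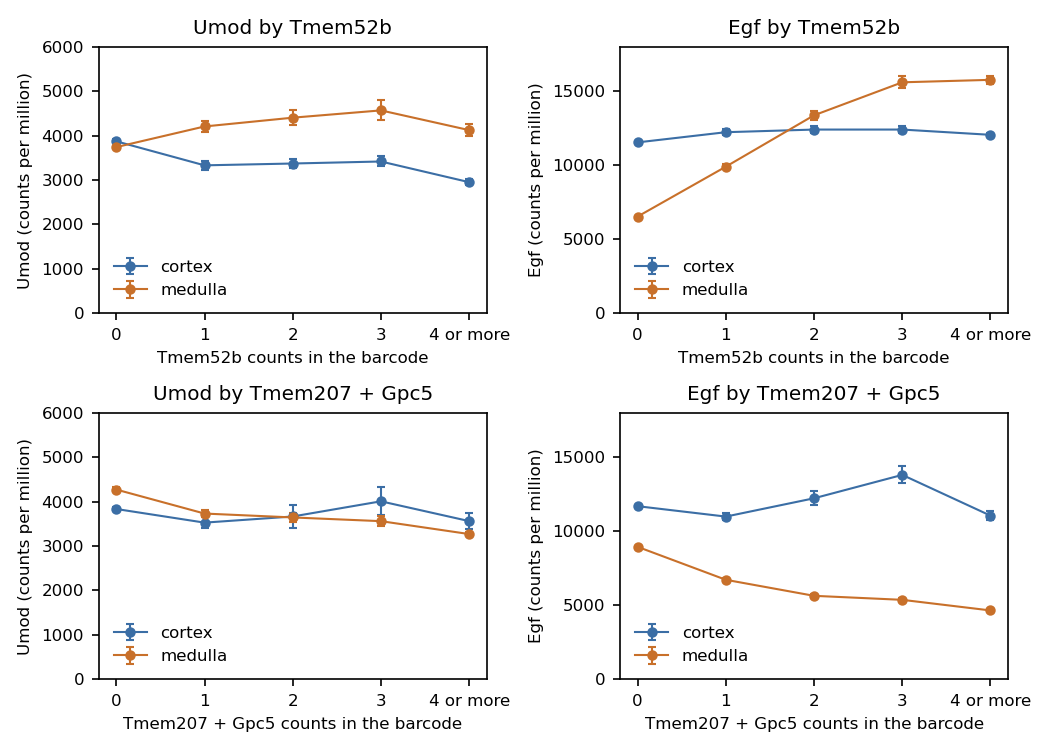
Umod (left) and Egf (right) in CPM against the count of Tmem52b (top, barcodes outside MD) and of Tmem207 + Gpc5 (bottom, barcodes outside MD and TAL-β), cortex in blue and medulla in orange, with exact Poisson 95% intervals. Only the medulla curves of Egf ran steeply, from 6531 to 15778 CPM along Tmem52b and from 8945 to 4643 CPM along Tmem207 + Gpc5. The part of the deposited clusters in these curves was not tested.

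Between the libraries, the classes did not move together. Egf was higher in cortex than in medulla TAL-α, at a ratio of 1.37 (1.35 to 1.38), and lower in cortex than in medulla TAL-β, at 0.817 (0.806 to 0.829). Umod was lower in cortex in both, at 0.913 (0.899 to 0.926) in TAL-α and 0.726 (0.706 to 0.746) in TAL-β. Slc12a1 had ratios of 0.740 and 0.712 in the same classes, and the proximal tubule list was at 3528 and 4410.5 CPM in cortex against 806 and 1074 CPM in medulla. Slc12a3 was also higher in cortex, at a ratio of 24.9 in TAL-α and 1.77 in TAL-β, and the part of either in these differences was not tested. A cortex-to-medulla ratio of 2 or more was found for 11.0% of genes in TAL-α and 12.0% in TAL-β, and a ratio of 0.5 or less for 2.02% and 1.27%, with Umod and Egf among none of them. Without the barcodes holding 3 or more proximal tubule counts, the TAL-α ratio of Umod became 1.03 and the TAL-β ratios became 0.882 for Umod and 0.970 for Egf, whereas the TAL-α ratio of Egf rose to 1.57. The higher Egf of cortex TAL-α turned direction only when free RNA scaled on proximal tubule genes was subtracted (0.826). Per Slc12a1 count the other ratios turned above 1, to 1.23 and 1.02 for Umod in TAL-α and TAL-β and 1.15 for Egf in TAL-β.

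The number of Egf counts per Umod count, which does not use the library total, also differed between the classes as wholes. It was 3.06 in cortex TAL-α (3.02 to 3.10), 3.90 in cortex TAL-β (3.83 to 3.97), 3.46 in medulla TAL-β (3.37 to 3.55), 2.04 in medulla TAL-α (2.02 to 2.07) and 1.45 in medulla TAL-γ (1.43 to 1.47). None of these intervals overlapped. In MD it was 3.42 in cortex (3.20 to 3.65) and 1.12 in medulla (0.793 to 1.59). Most of these MD counts came from barcodes outside the deposited MD clusters. The deposited MD clusters stood in the other order, at 1.95 in cortex (1.57 to 2.43) and 2.65 in medulla (1.49 to 4.93). By deposited cluster of the medulla, the mostly TAL-α clusters 1, 3 and 4 stood at 2.65, 1.29 and 0.902. The mostly TAL-γ clusters 7, 5 and 2 stood at 1.55, 1.39 and 0.912. Outside cluster 1 these TAL-α clusters were thus not above the TAL-γ clusters, and the part of cluster 1 in the class difference was not tested.

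Across the 26 deposited clusters, 13 per library, Egf ran from 63.4 to 17913 CPM and Umod from 62.3 to 5707 CPM. At the low end stood the proximal tubule clusters (cortex cluster 13, 62.3 CPM of Umod and 120.5 CPM of Egf, and medulla cluster 11, 78.2 and 63.4 CPM) and the MD clusters (cortex cluster 3, 98.5 and 192 CPM, and medulla cluster 12, 90.8 and 240.3 CPM). The Umod intervals of these 4 clusters overlapped from each rank to the next. Every other cluster held at least 1373 CPM of Umod and 2410.1 CPM of Egf. In the order from high to low, 16 of 25 neighbouring pairs of clusters had overlapping intervals for Umod and 9 of 25 for Egf.

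Clusters with at least 95% TAL barcodes, a most common class other than MD and under 1000 CPM of the proximal tubule list were compared. Umod differed 2.00-fold among 6 cortex clusters and 1.95-fold among 8 medulla clusters. Egf differed 1.71-fold in cortex and 7.21-fold in medulla. Cortex cluster 8, the lowest of the 6 for both genes, held a list of MD markers at 1937.5 CPM. In cortex cluster 10, 49 of 144 barcodes were MD. Medulla cluster 6, mostly TAL-β, was highest at 17369 CPM of Egf, followed by cluster 1, 96.6% TAL-α, at 13838 CPM. Cluster 7 (mostly TAL-γ) held 7044 CPM, cluster 3 (mostly TAL-α) 5049 CPM and cluster 8 (175 TAL-α and 169 TAL-γ barcodes) 4463 CPM. Cluster 5 (TAL-γ) held 4302 CPM, cluster 2 (TAL-γ) 2770.4 CPM and cluster 4 (mostly TAL-α) 2410.1 CPM. Medullary TAL-α therefore contained both the second highest and the lowest of these 8 Egf levels. Umod was 5222 CPM in cluster 1 and 2673 CPM in cluster 4, and the number of Egf counts per Umod count fell from 2.65 to 0.902 between them.

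**Figure D4:**
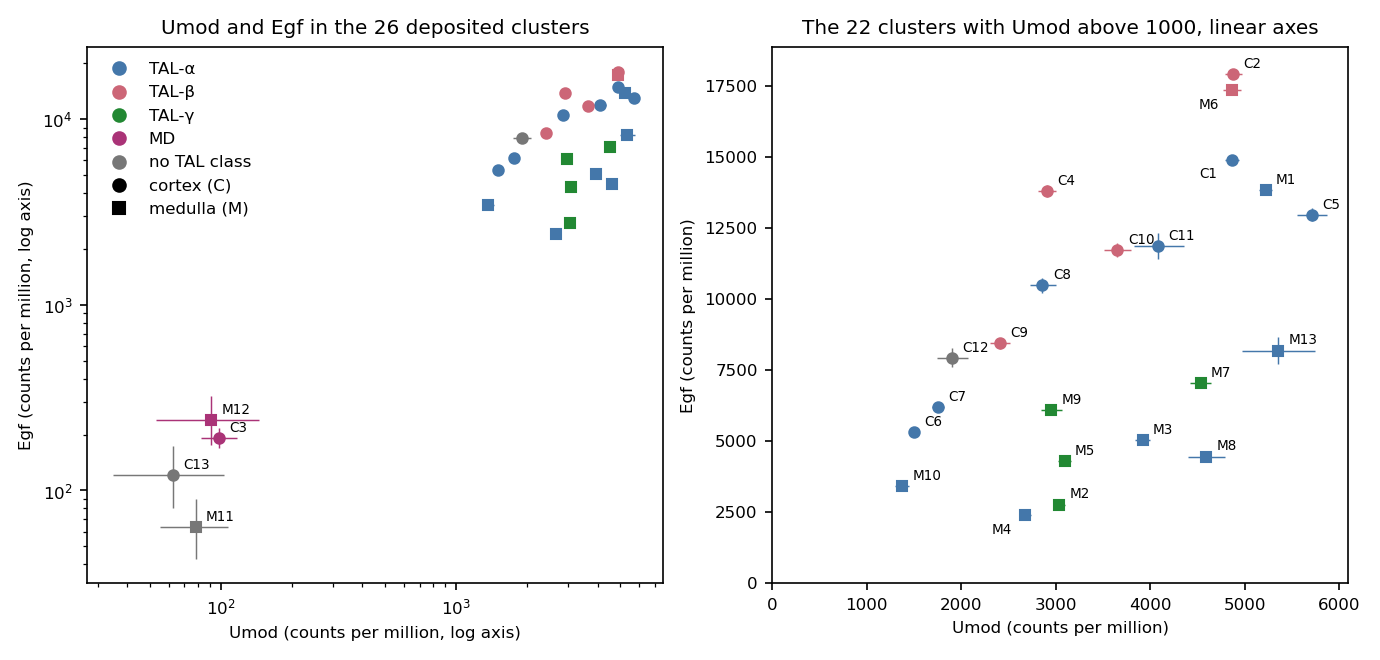
Egf against Umod in CPM for the 26 deposited clusters on log axes (left) and for those with over 1000 CPM of Umod on linear axes (right), coloured by the most common TAL class, circles for cortex (C) and squares for medulla (M), with exact Poisson 95% intervals. MD clusters C3 and M12 sat beside the proximal tubule clusters C13 and M11, and medulla clusters spread from 2410.1 to 17369 CPM of Egf at Umod levels of 2673 to 5222 CPM, leaving aside M9, M10 and M13.

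Within medullary TAL-α the deposited clusters also differed barcode by barcode, a description only, since the clustering may have had these genes among its inputs. After thinning to 1000 counts, the 1485 TAL-α barcodes of cluster 1 held a median of 14 Egf counts (quartiles 9 and 18), the 788 of cluster 3 a median of 4 (2 and 7.25) and the 644 of cluster 4 a median of 2 (1 and 3). The middle ranges of clusters 1 and 4 did not overlap for Egf. For Umod the medians were 5, 4 and 2, and the ranges of clusters 1 and 3 overlapped (3 to 7 and 2 to 6). Of other transport genes, chosen here after their values were seen, the calcium-sensing receptor gene Casr was at 877, 342 and 76.1 CPM and Cldn19 at 142, 97.9 and 85.7 CPM in clusters 1, 3 and 4, while Slc9a3 was at 515, 882 and 883 CPM.

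Egf had a high variance for its mean. Among genes with a mean of at least 1 count per 1000, the variance divided by the mean of Egf was the highest of 87 genes in medullary TAL-α (6.89) and of 94 in medullary TAL-γ (5.58), against medians over genes of 1.32 and 1.29. It was also the highest of 74 genes in cortex TAL-α (4.98), and 1 gene was above it in TAL-β of each library (4.51 in cortex and 4.76 in medulla). For Umod it was 2.13 in cortex TAL-α and 1.82 in medullary TAL-α, where 8 and 11 genes were above it. This measure grows with the mean, and the coefficient of variation beyond counting error gave a different order in part. It was 0.840 for Egf and 0.440 for Umod in medullary TAL-α and 0.975 and 0.492 in medullary TAL-γ, but 0.565 and 0.526 in cortex TAL-α, 0.498 and 0.558 in cortex TAL-β and 3.03 and 3.07 in medulla MD. No Egf count was left after thinning in 9.93% of medullary TAL-α and 13.7% of medullary TAL-γ barcodes, against 0.876% of medullary TAL-β barcodes, and more than 10 were found in 33.3%, 12.2% and 67.8%. In cortex, more than 10 were found in 57.6% of TAL-α and 63.4% of TAL-β barcodes.

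**Figure D5:**
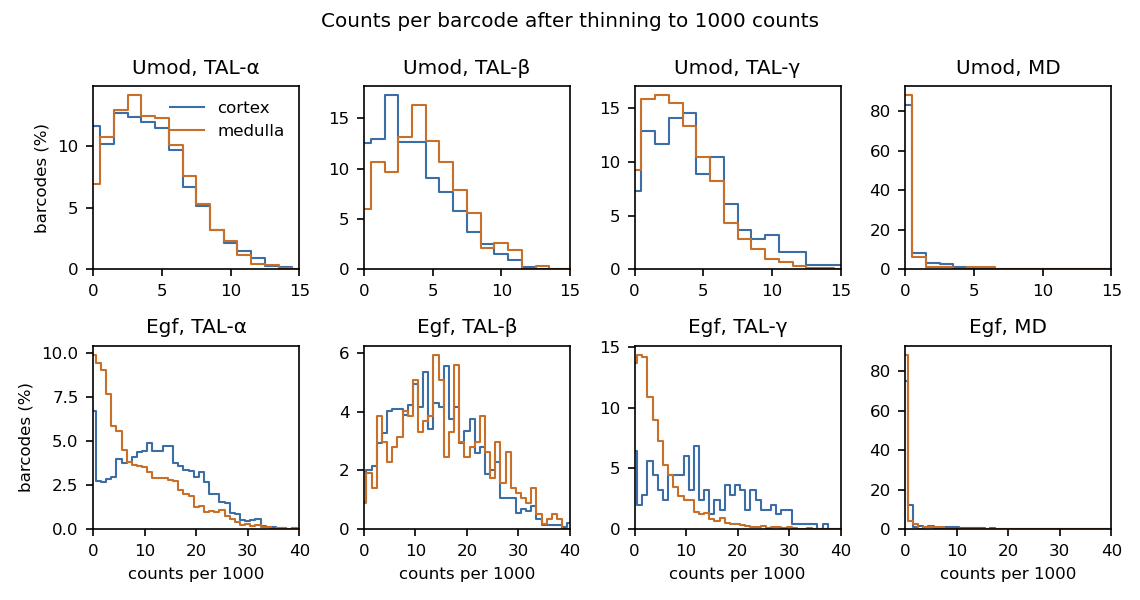
Share of barcodes (%) by counts of Umod (top, axis to 15) and Egf (bottom, axis to 40) after thinning each barcode to 1000 counts, by TAL class, cortex in blue and medulla in orange. Egf was broad in TAL-β of both libraries and piled up at low counts in medullary TAL-α and TAL-γ, whereas 74.9% of cortex and 88.5% of medulla MD barcodes stood at 0.

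Barcode by barcode, Umod and Egf were only loosely tied within a class. The Pearson correlation of thinned counts was 0.297 in cortex TAL-α, 0.227 in cortex TAL-β, 0.219 in medullary TAL-α, 0.229 in medullary TAL-γ and 0.0809 in medullary TAL-β, a weak relation in sparse counts that share a library. In MD it was 0.675 in cortex and 0.636 in medulla, where a minority of barcodes held both genes: 16.5% of cortex MD barcodes held both, 57.9% held neither, 18.4% held Egf alone and 7.20% held Umod alone. The cortex MD class pooled 537 barcodes of the deposited MD cluster (83 Umod and 180 Egf counts) with 116 others (1114 and 3912 counts). The part of this pooling in the MD correlation was not tested. In cortex TAL-β, 0 of 1493 barcodes lacked both, which allows a share of up to 0.247% (Clopper-Pearson).

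Across the 26 clusters, on log2(CPM + 1), the genes whose pattern was most like that of Umod among 6141 genes with at least 1000 counts were Tarm1 (Pearson r = 0.982), Pak6, a p21-activated kinase (0.978), Rgs6, a regulator of G protein signalling (0.971), Dusp15, a phosphatase (0.971), and Shank2, a scaffold protein (0.970). The least like were Fnip1 (-0.85), Slc35a3 (-0.84) and Psme4 (-0.83). For Egf the most like were Emp1, an epithelial membrane protein (0.976), the noncoding E230016K23Rik (0.960), Cldn19 (0.958), Nckap5 (0.948) and Krt7, a keratin (0.947), and the least like were Tasp1 (-0.79), Slc35a3 (-0.78) and Numa1 (-0.78). Umod and Egf correlated with each other at 0.946. These values rest on 26 points from 2 libraries, of which 4 clusters were low in both genes. By rank (Spearman) the correlation of Umod with Egf was 0.722, and 2 of the 5 genes named for each remained among its 5 most alike. Slc12a1 was less alike, at 0.714 with Umod and 0.677 with Egf.

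Gp2 was near Umod both in pattern and on the chromosome. It lies at chr7:119041760-119058508 on the same strand, beginning 3425 bases beyond the 3′ end of Umod, and correlated with Umod at 0.958 across clusters. Its level did not follow Umod at a fixed proportion: per 1000 Umod counts there were 30.5 Gp2 counts in cortex TAL-α (28.6 to 32.6), 47.0 in cortex TAL-β (43.7 to 50.6), 36.4 in medullary TAL-α (34.5 to 38.3), 41.7 in medullary TAL-β (37.2 to 46.7) and 58.7 in medullary TAL-γ (55.9 to 61.5). Gp2 was highest in medulla cluster 2 at 290 CPM, where Umod was at 3039 CPM, against 139 CPM in cluster 1, where Umod was at 5222 CPM. Whether transcripts that read through the end of Umod were counted as Gp2 was not tested. The genes that overlap the members on the other strand, Gm44588 in Umod and Gm42697 and Gm42650 in Egf, reached at most 11.4, 16.5 and 4.14 CPM in TAL-α, TAL-β and TAL-γ barcodes of either library.

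Both transcripts were also found in barcodes of the distal convoluted tubule. The 42 cortex barcodes with at least 3 counts of Slc12a3, the thiazide-sensitive cotransporter, and at most 2 of Slc12a1 held Egf at 4665 CPM (4281 to 5076) and Umod at 949 CPM (779.7 to 1143). The 10 such barcodes in medulla held 4161 CPM (3441 to 4986) and 1920.3 CPM (1443 to 2506). Egf was seen in 90.5% of the cortex barcodes (77.4 to 97.3%) and Umod in 54.8% (38.7 to 70.2%), against 47.1% and 27.9% in the proximal tubule background. There were 4.92 Egf counts per Umod count in them (4.00 to 6.09), against 3.32 (2.54 to 4.37) in that background. These detection shares are as deposited, without thinning to a common depth. Of the 42 cortex barcodes, 31.0% also held 3 or more proximal tubule counts, and the part of such mixing in these levels was not tested.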

How the data were processed

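Single-nucleus RNA was measured with PIPseq in 1 cortex and 1 medulla library of mouse kidney nuclei. The authors aligned reads to GRCm39 and deposited counts per gene and barcode from PIPseeker, raw and for called barcodes, with cluster numbers. The submitters' processing notes also name Seurat 4.4.0 and bcl2fastq. The annotation release is not given in the sources used here. Their later doublet removal, SoupX correction and integration were not applied, since the deposited counts precede them. Levels are counts per 1000000 of the counts summed over a class (CPM), with 95% exact Poisson intervals, ratios with conditional binomial intervals and shares with Clopper-Pearson intervals, all for counting error only. The TAL classes, gene lists and tests were chosen with earlier results of these data known. Lists held 73 genes, 72 of them matched by symbol (Nrg1 was not). A gene was counted as higher or lower at a ratio of at least 2 or at most 0.5 with 20 or more counts on both sides together. Genes were named if they were members of these lists that passed a limit, had the largest or smallest ratio of their list or were needed by a sentence, or the 5 most and 3 least correlated across clusters among genes with at least 1000 counts. Casr and Cldn19, Slc9a3 by cluster and Gp2 by cluster were chosen after their values were seen. Depth was compared after thinning to 1000 counts (seed 1), which left out 23 shallower medulla TAL barcodes. Doublets were scored with Scrublet in scanpy only as an alternative, leaving out the 5% highest scores (273 and 407 barcodes). The ratio and its interval were tested on simulated data. Python 3.11.15 was used. Some members of the gene lists are counted but not reported here by name.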

Additional observations from a re-analysis of the deposited data

Results flagged for a closer look

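The ratio of TAL-β to TAL-α for Umod was below 1 in cortex (0.823) and above 1 in medulla (1.03), and it stood out because the libraries lay on opposite sides of 1. They did not with the deposited clusters as classes (1.16 and 1.23) or per Slc12a1 count (1.14 and 1.38), where both were above 1. The deposited TAL-α class took in clusters rich in proximal tubule counts, among them cortex clusters 6 and 7 and medulla cluster 10. Their part was not tested. The difference between them was not tested, with 1 library per region. The cortex-to-medulla ratio of Egf was above 1 in TAL-α (1.37) and below 1 in TAL-β (0.817), again in opposite directions and again not tested.

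Barcodes that were not called as nuclei and held at most 50 counts were outside the comparisons, and both transcripts were present there. The 372134 such cortex barcodes held Umod at 4633 CPM, and the 386997 of the medulla held it at 7520 CPM (7519.8). For Egf the levels were 11507 CPM among the cortex barcodes and 8050 CPM (8049.7) among those of the medulla. Set beside the TAL barcodes outside MD, these levels were above theirs for Umod (3545 and 3816 CPM), close to theirs for Egf in cortex (11856 CPM) and above theirs for Egf in medulla (7432 CPM).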

How the results depend on the processing

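Of 212 values recomputed under an alternative, 105 moved by less than the counting interval of the reported value, 98 moved beyond it and 9 turned direction. The cause was not tested unless the alternative itself changed the barcodes. Classes from the deposited clusters gave all barcodes of a cluster its most common class. TAL-α then took in cortex clusters 6 and 7 and medulla cluster 10. The proximal tubule list was at 12156.5, 12912 and 11168.5 CPM in these 3 clusters. The deficit of both genes in MD kept its direction wherever a value could be computed. The filter on genes and mitochondrial counts, and leaving Umod, Egf and Slc12a1 out of the totals, moved none of the 18 and 14 values they touched. Subtraction of the proximal tubule background level and scaling per Slc12a1 count were chosen after seeing the data.
With classes taken from the deposited clusters, MD against other TAL gave Umod 0.0285 (cortex) and 0.0239 (medulla), Egf 0.0166 (cortex) and 0.0324 (medulla), TAL-β against TAL-α gave Umod 1.16 (cortex, reversed) and 1.23 (medulla), Egf 1.43 (cortex) and 2.25 (medulla), TAL-γ against TAL-α gave Umod 0.836 (medulla), cortex against medulla gave Umod 0.827 (TAL-α) and 0.783 (TAL-β), Egf 1.31 (TAL-α) and 0.831 (TAL-β) and the share of MD barcodes with a count was Umod 13.0% (cortex), Egf 24.8% (cortex). Without the 5% of barcodes with the highest doublet scores, MD against other TAL gave Umod 0.0885 (cortex) and 0.0624 (medulla), Egf 0.0840 (cortex) and 0.0329 (medulla), TAL-β against TAL-α gave Egf 1.07 (cortex) and 1.81 (medulla), TAL-γ against TAL-α gave Egf 0.552 (medulla) and the share of MD barcodes with a count was Umod 17.3% (cortex), Egf 29.3% (cortex). Without barcodes holding 3 or more proximal tubule counts, MD against other TAL gave Umod 0.115 (cortex), Egf 0.116 (cortex), TAL-β against TAL-α gave Umod 0.900 (cortex), Egf 1.14 (cortex) and 1.84 (medulla), TAL-γ against TAL-α gave Egf 0.578 (medulla), cortex against medulla gave Umod 1.03 (TAL-α, reversed) and 0.882 (TAL-β), Egf 1.57 (TAL-α) and 0.970 (TAL-β) and the share of MD barcodes with a count was Umod 19.3% (cortex). With Nos1 + Pappa2 of at least 5, MD against other TAL gave Umod 0.174 (cortex), Egf 0.182 (cortex), TAL-β against TAL-α gave Umod 0.851 (cortex), Egf 1.09 (cortex) and cortex against medulla gave Umod 0.881 (TAL-α), Egf 1.32 (TAL-α). With at least 3 counts for TAL-β and TAL-γ, TAL-β against TAL-α gave Egf 1.89 (medulla), TAL-γ against TAL-α gave Umod 0.821 (medulla), Egf 0.614 (medulla) and cortex against medulla gave Egf 1.40 (TAL-α) and 0.772 (TAL-β). With Slc12a1 of at least 20, MD against other TAL gave Umod 0.226 (cortex), Egf 0.236 (cortex) and cortex against medulla gave Umod 0.931 (TAL-α), Egf 1.39 (TAL-α) and 0.832 (TAL-β). As means of each barcode's share, MD against other TAL gave Umod 0.0928 (cortex) and 0.0769 (medulla), Egf 0.0903 (cortex), TAL-β against TAL-α gave Umod 0.874 (cortex), Egf 1.14 (cortex) and 1.89 (medulla) and cortex against medulla gave Umod 0.961 (TAL-α) and 0.804 (TAL-β), Egf 1.49 (TAL-α) and 0.898 (TAL-β). At 1000 counts per barcode, MD against other TAL gave Umod 0.100 (cortex) and 0.0694 (medulla), Egf 0.0890 (cortex), TAL-β against TAL-α gave Umod 0.866 (cortex), Egf 1.13 (cortex) and 1.86 (medulla), cortex against medulla gave Umod 0.965 (TAL-α) and 0.804 (TAL-β), Egf 1.50 (TAL-α) and 0.911 (TAL-β) and the share of MD barcodes with a count was Umod 17.0% (cortex) and 11.5% (medulla), Egf 25.1% (cortex) and 11.5% (medulla). After subtraction of free RNA, its share taken from the proximal tubule list, TAL-β against TAL-α gave Umod 0.579 (medulla, reversed), Egf 0.765 (cortex, reversed) and 1.95 (medulla), TAL-γ against TAL-α gave Umod 0.577 (medulla), Egf 0.393 (medulla) and cortex against medulla gave Umod 0.641 (TAL-α), Egf 0.826 (TAL-α, reversed) and 0.324 (TAL-β). After subtraction of the proximal tubule background level, MD against other TAL gave Umod 0.164 (cortex) and 0.0755 (medulla), Egf 0.169 (cortex) and 0.0439 (medulla) and cortex against medulla gave Umod 0.897 (TAL-α) and 0.706 (TAL-β), Egf 1.32 (TAL-α) and 0.787 (TAL-β). Per Slc12a1 count, MD against other TAL gave Umod 0.141 (medulla), Egf 0.219 (cortex) and 0.0814 (medulla), TAL-β against TAL-α gave Umod 1.14 (cortex, reversed) and 1.38 (medulla), Egf 1.46 (cortex) and 2.34 (medulla), TAL-γ against TAL-α gave Umod 0.826 (medulla), Egf 0.586 (medulla) and cortex against medulla gave Umod 1.23 (TAL-α, reversed) and 1.02 (TAL-β, reversed), Egf 1.85 (TAL-α) and 1.15 (TAL-β, reversed). By Spearman correlation, 2 of the 5 genes named for Umod and 2 of those for Egf remained, and with a minimum of 200 counts 3 of those for Egf did. Free RNA scaled on the proximal tubule list gave no value for 6 ratios, among them every MD ratio, since the subtraction left less than 0 counts. It took 65.9% of cortex and 33.8% of medulla counts in TAL barcodes outside MD as free RNA. Proximal tubule transcripts mixed into the sort enter that share, so no direction is drawn from the values it gave.

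No paired analysis was possible because the labels carry no replicate numbers and each region has 1 library. Depth limits the small classes: 3 counts, the floor used for a count of 0, stood for 18.1 CPM in medulla MD, 3.64 CPM in the cortex barcodes meeting the TAL-γ rule and 1.80 CPM in cortex MD. All intervals cover counting error alone, so they say nothing of the spread between animals, and the number of animals per library is not given in the sources used here.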
